A study of Daphnia magna with 20 samples.

Results

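Whole Daphnia magna exposed for 21 days to ethylene acrylic acid copolymer particles at 2.3e12 particles per litre (nano_high) were compared with animals given the vehicle alone (control). The comparison used the 5 libraries titled nano_high and the 5 titled control, 10 of the 20 libraries of the study, chosen by their titles and not by any measured value. The study also held 5 libraries of the same copolymer at 2.3e11 particles per litre (nano_low) and 5 of fumed silica at 2.3e12 (silica; the design text repeats no unit there), which were used here to estimate the spread and for side values. All 4 groups shared the remaining conditions: 1 daphnid per vessel, 15 vessels per level, 20 °C, 16 h of light and 8 h of dark, with green algae and a yeast-based suspension as food. RNA was taken from pooled whole animals. The sources used here give neither the number of animals per pool nor separate cultures, so p-values measure only how far these pools differ, which may be technical. The labels name neonates as the stage although exposure lasted to day 21, and the age at sampling is not settled.

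Daphnia magna is a freshwater crustacean that filters suspended particles, normally algae, out of the water and passes them through a simple gut, which makes it a standard animal for tests of particles. The copolymer is a plastic made of ethylene and acrylic acid units, and fumed silica is a mineral powder of very small particles, included at the same nominal number. In animals generally, growth and egg production draw on ribosomes and mitochondria, peroxide-reducing enzymes and metal-binding proteins handle oxidants and metals, and transcription factors and kinases set which genes are read. Each library holds RNA of all tissues at once, so fewer cells of a type and less RNA per cell cannot be told apart.

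Libraries 4 and 5 of control and 4 and 5 of nano_high stood apart from the other libraries of their groups. Their scores on the first principal component of log2 CPM, which held 38.9% of the variance, were -54.0, -55.2, -53.2 and -33.6, against -12.2 to 28.9 for the other 6. A value in CPM is the count divided by the library total after TMM scaling, times 1000000. Collagen alpha-1v chain, a matrix protein, was at 0.570 and 1.23 CPM in control 4 and 5 and at 0.348 and 4.21 CPM in nano_high 4 and 5, against 81.3 to 649 CPM in the other 6. Each group thus held 2 such libraries of 5. Depth differed between the groups: library totals ran from 11918440 to 26562258 estimated counts in control and from 39087882 to 95906857 in nano_high, so each nano_high library was deeper than each control library. For the results most touched by these differences the text adds values from a fit without these libraries (nano_low 1, which also stood apart, was left out with them) or from a fit in which all 20 libraries were thinned to the same total of 7912464 counts. Transcripts of whole animals were present in all 10 libraries, with vitellogenin-1 precursor, a yolk protein, at 19290 to 136746 CPM and di-domain hemoglobin precursor at 1726 to 5794 CPM. Libraries were sequenced in pools of 8, and the sources used here do not say which shared a pool, so the pool could not be examined.

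**Figure D1:**
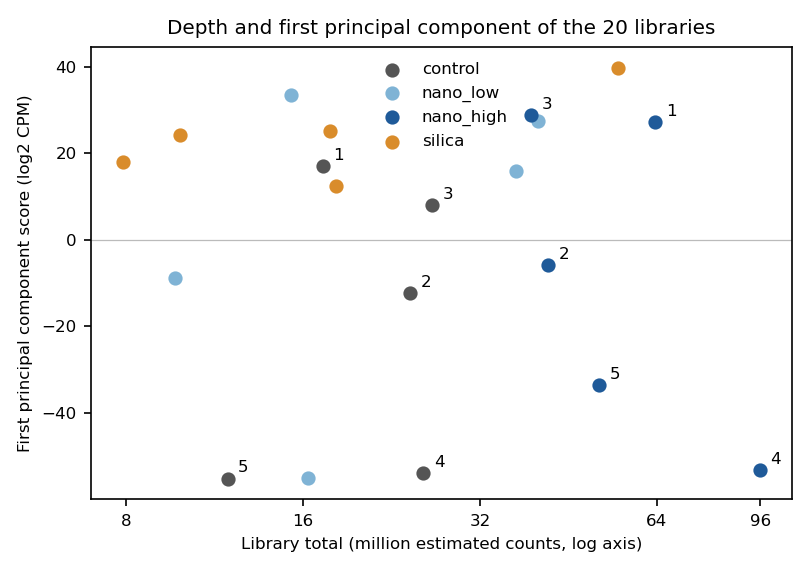
Library total in estimated counts (log axis, in units of 1000000) against the score on the first principal component of log2 CPM, 1 point per library, coloured by group, with control and nano_high numbered by replicate. The 5 nano_high points lie to the right of the 5 control points, and libraries 4 and 5 of both groups lie at the bottom, at -33.6 or below.

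A name here is a protein description, with a gene tag for some of the genes that share it. A name without a tag can also share its description with other names, as alpha-amylase does (3 names). The values given are those of the printed name only. A name was called when the edgeR quasi-likelihood test gave a Benjamini-Hochberg adjusted p under 0.05 over the 7564 names tested. In nano_high against control 769 names were called, 10.2% of those tested. Of these, 393 were higher in nano_high (5.2%) and 376 lower (4.97%). The median log2 fold change over all names was 0.02. Most called changes were moderate: the median size was 0.47 on the log2 scale for names that rose and 0.52 for names that fell, and 54 called names changed by more than 2-fold. The summed mean level of the names called lower went from 93512 CPM in control to 58963 CPM in nano_high, and that of the names called higher from 31577 to 43779 CPM.

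In 304 names (4.02%) every nano_high library was above every control library, and in 362 names (4.79%) every nano_high library was below. A smaller set of 339 names (4.48%), 147 higher and 192 lower, was called with the same sign in the full fit and in each of the 10 fits that left out 1 library of the comparison. These are termed stable names below. Of them 255 were also called without the 5 libraries that stood apart, and 322 after thinning. The total count moved with single libraries: it was 452 without control 3, 483 without control 4, 490 without nano_high 2 and 416 without nano_high 3. The balance of higher and lower calls was not stable. More names were lower than higher without control 2, 3, 4 or 5 or nano_high 1, 2 or 3, with 183 higher and 269 lower without control 3, and also with only the 2 groups fitted (158 and 213) and after thinning (290 and 324).

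**Figure D2:**
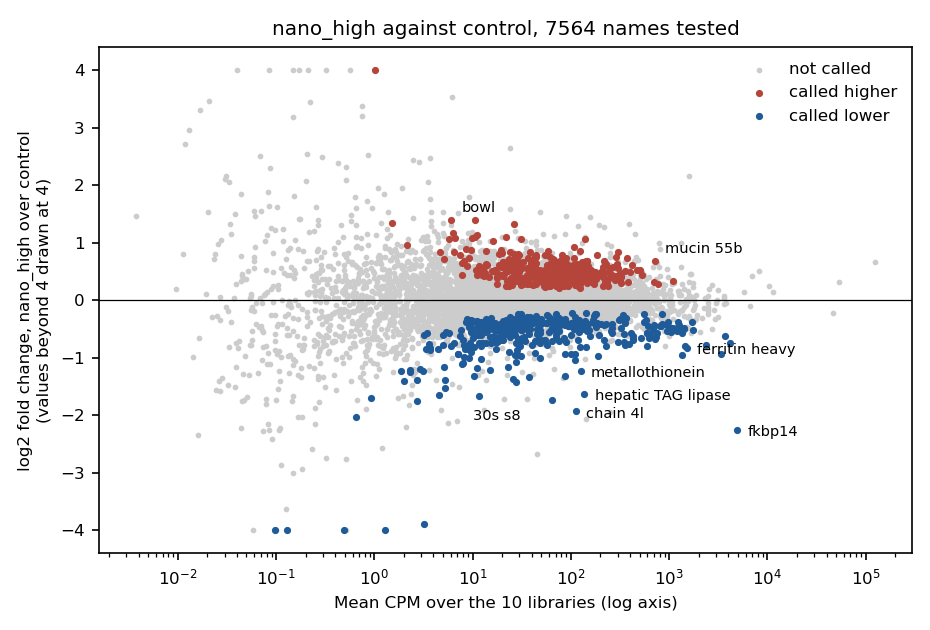
Mean level over the 10 libraries (CPM, log axis) against the log2 fold change of nano_high over control, 1 point per name, grey where not called, red where called higher and blue where called lower, with 8 names marked. Called names lie mostly in the middle and upper range of levels, 393 above and 376 below the zero line; few of the lowest names are called, and fold changes beyond 4 are drawn at 4.

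The clearest group among the falls was the cytosolic ribosomal proteins. Of 99 cytosolic ribosomal proteins, the structural parts of the ribosome, 40 fell and 0 rose, with a list median of -0.38 on the log2 scale, and 22 of the 40 were stable. The number called lower was 22 without nano_high 3. It was 25 without the 5 libraries that stood apart and 37 after thinning. The summed level of the list overlapped between the groups, at 68190.0 to 81600.0 CPM in control and 54010.0 to 74210.0 CPM in nano_high. Copies of ribosomal protein genes may share reads or may have been summed under 1 name, so values of single names are uncertain as to the gene.

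The large-subunit protein 60s ribosomal protein l37a/arp2_g3347 was at 97.5, 101, 115, 127 and 131 CPM in control libraries 1 to 5 and at 55.7, 72.3, 45.9, 68.4 and 57.5 CPM in nano_high libraries 1 to 5. No libraries overlapped, and nano_high 3 was the lowest (log2 change -0.93 with SE 0.14, edgeR adjusted p = 0.00146). For 60s ribosomal protein l19, the called ribosomal name with the most reads, control held 1939, 2011, 2100.3, 2079.6 and 2096 CPM and nano_high 1370.3, 1506, 1174, 1695 and 1413 CPM. The control libraries lay close together, while nano_high ranged more widely and stayed below all of them (log2 change -0.51 with SE 0.11, edgeR adjusted p = 0.00765). The acidic stalk protein 60s acidic ribosomal protein p2/arp2_g1144 showed the largest fall of the list, from 35.9, 35.2, 35.6, 56.9 and 39.9 CPM to 10.9, 13.8, 11.41, 22.9 and 16.8 CPM. Control 4 was the high library in the first group and nano_high 4 in the second (log2 change -1.42 with SE 0.27, edgeR adjusted p = 0.00415). In a separate list of 65 mitochondrial and bacterial-type ribosomal names 2 fell and 0 rose, a share below that over all names. The number lower was 1 without control 1, control 2, control 3, nano_high 2, nano_high 4 or nano_high 5. With the first component as a covariate 20 names of this list were lower, in a fit that called 868 of all 7564 names lower. One of the 2 names called lower in the full fit was 30s ribosomal protein s8/arp2_g2243, named for a bacterial-type small-subunit protein. It gave the lowest adjusted p of the comparison, with 90.8, 87.5, 98.8, 110.0 and 105 CPM in control against 26.9, 31.8, 26.6, 37.3 and 26.02 CPM in nano_high (log2 change -1.73 with SE 0.16, edgeR adjusted p = 1.31e-05).

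Translation factors, the proteins that load transfer RNAs and start and elongate the peptide chain, moved in both directions. Of 64 names 9 fell (14.1%, against 4.97% over all names) and 4 rose (6.25%, against 5.2%), with a median of -0.05. The beta subunit of the complex that reloads elongation factor 1 alpha was among the falls under 2 names. Elongation factor 1 beta/arp2_g1903 was at 28.1, 31.4, 29.5, 35.04 and 35.2 CPM in control and 14.3, 15.1, 11.3, 16.7 and 14.1 CPM in nano_high (log2 change -1.16 with SE 0.16, edgeR adjusted p = 0.000616). Elongation factor 1-beta, listed separately, was at 456, 455, 538, 572 and 584 CPM against 363, 348, 307, 384 and 294 CPM (log2 change -0.62 with SE 0.11, edgeR adjusted p = 0.0026). In both the 5 nano_high libraries lay below the 5 control libraries. Eukaryotic translation elongation factor 1 epsilon-1 went from 22.4 ± 3.13 to 12.5 ± 2.28 CPM (SD, n = 5) and the initiation factor eukaryotic translation initiation factor 1a, x-chromosomal from 259 ± 9.83 to 195 ± 15.8 CPM, log2 changes of -0.84 and -0.41 with edgeR adjusted p = 0.00359 and 0.00332. Eukaryotic translation initiation factor 4 gamma, the scaffold that joins messenger RNA to the ribosome, was instead higher, at 1074, 1097, 849, 907 and 896 CPM in control and 1146, 1163, 1214, 1094 and 1455 CPM in nano_high. Its libraries overlapped and its call was lost in some leave-one-out fits (log2 change 0.33 with SE 0.09, edgeR adjusted p = 0.0293, and edgeR adjusted p up to 0.0828, without control 3). Eukaryotic translation initiation factor/arp2_g3526, a stable name, rose from 14.1 ± 5.94 to 30.2 ± 4.59 CPM without overlap (log2 change 1.10 with SE 0.22, edgeR adjusted p = 0.00549; without the 5 libraries that stood apart edgeR adjusted p = 0.0616). Without the 5 libraries that stood apart the counts were 0 higher and 8 lower, so none of the 4 rises was called there. Of the falls, the number was within 1.5 times of that without any 1 library, and of the rises 2 without control 3 or control 5. Aminoacyl-tRNA synthetases, which charge transfer RNAs, had 1 of 37 called higher and 0 lower, a share of 2.7%. Of 44 ribosome assembly and nucleolus names 1 fell and 0 rose, a share of 2.27%. Both shares lie below the 10.2% over all names.

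Transcripts of the mitochondrial respiratory chain were lower in several places. Of 30 names of complex I, the entry point of the chain, 5 fell and 0 rose (median -0.24). Of 33 names of complexes II to IV 4 fell and 0 rose (-0.21), and of 23 names of the ATP synthase 3 fell and 0 rose (-0.20). For complexes II to IV the number was 1 without control 2, nano_high 2, nano_high 4 or nano_high 5, 2 without control 1, control 3, control 4 or nano_high 3, and without the 5 libraries that stood apart it was 2. For the ATP synthase it was 1 without nano_high 3, 5 without nano_high 1, and 3 without the 5. The number of complex I names called lower was 3 without control 3, and without the 5 libraries that stood apart it was 3. The medians of complex I, complexes II to IV and the ATP synthase also moved with single libraries. They were -0.13, -0.06 and -0.04 without control 3, and -0.303, -0.285 and -0.262 without nano_high 3. Summed levels of all these lists overlapped between the groups. For the ATP synthase they were 7569 to 11850 CPM in control and 7380 to 11610 CPM in nano_high. With the first component as a covariate 20 names of complex I, 15 of complexes II to IV and 11 of the ATP synthase were lower. That fit called 868 of all 7564 names lower. Nadh-ubiquinone oxidoreductase chain 4l, a membrane subunit, was at 230.2, 170.1, 229, 148 and 108 CPM in control and 59.8, 35.8, 70.8, 32.9 and 32.4 CPM in nano_high. The highest nano_high library was below the lowest control library (log2 change -1.93 with SE 0.34, edgeR adjusted p = 0.0026). Nadh dehydrogenase [ubiquinone] 1 subunit c2, an accessory subunit, was at 17.5, 15.1, 19.4, 11.7 and 13.8 CPM against 9.86, 6.86, 7.53, 4.63 and 5.21 CPM, again without overlap (log2 change -1.18 with SE 0.20, edgeR adjusted p = 0.00198). Libraries 4 and 5 were the lowest of their group in both groups. The iron-sulfur proteins 3 and 4 of the complex fell by 0.70 and 0.61 on the log2 scale. Protein 3 was not called in some leave-one-out fits (edgeR adjusted p up to 0.0605, without control 3) and protein 4 was not called without the 5 libraries that stood apart (edgeR adjusted p = 0.059). Hig1 domain family member/arp2_g6209, named for a small family of respiratory chain assembly factors, went from 14.9 ± 3.18 to 5.95 ± 0.785 CPM (log2 change -1.32 with SE 0.17, edgeR adjusted p = 0.000616), and stomatin protein 2, mitochondrial, an inner membrane scaffold, was at 57.9, 61.6, 75.02, 52.2 and 20.9 CPM against 25.7, 23.8, 23.9, 16.1 and 16.8 CPM, where control 5 lay inside the nano_high range (log2 change -1.33 with SE 0.33, edgeR adjusted p = 0.0165). Of 13 names of glycolysis edgeR called 0, with 0 at an unadjusted p under 0.05 and 0 called by DESeq2. Of 20 names of mitochondrial import it called 0, with 6 at an unadjusted p under 0.05 and 3 called by DESeq2. Of the citrate cycle 1 of 24 names fell (4.17%, against 4.97% over all names). With the first component as a covariate the numbers lower were 2 for glycolysis, 7 for mitochondrial import and 6 for the citrate cycle.

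Enzymes that reduce peroxides and disulfides fell in number. Of 27 peroxide and thiol redox names 10 fell (37.0%) and 0 rose, with a median of -0.28, and 6 of the 10 were stable. The count was 7 without the 5 libraries that stood apart and 10 after thinning. The peroxidase branchiostoma peroxiredoxin v protein/arp2_g2142 was at 40.9, 35.01, 50.6, 43.9 and 37.8 CPM in control and 24.6, 21.04, 17.3, 24.9 and 18.1 CPM in nano_high (log2 change -0.97 with SE 0.17, edgeR adjusted p = 0.00233). The secreted thioredoxin peroxidase listed as gh25379p was at 106, 106, 117, 109 and 111 CPM against 88.2, 85.9, 79.8, 78.8 and 70.7 CPM (log2 change -0.44 with SE 0.07, edgeR adjusted p = 0.00198). Glutathione peroxidase, which uses glutathione to remove peroxides, held 177, 171, 207, 166 and 152 CPM in control and 146, 124, 128, 109 and 91.9 CPM in nano_high (log2 change -0.54 with SE 0.12, edgeR adjusted p = 0.00736). None of these 3 names had overlapping libraries, and nano_high 5 was the lowest or next to lowest each time. The list also held copper-zinc cu-zn superoxide dismutase., the name with the most reads in most libraries, which was not called: it was at 40072 to 170957 CPM in control and 131969 to 184513 CPM in nano_high (edgeR adjusted p = 0.213). Among 67 conjugation and cytochrome P450 names 4 fell and 1 rose, a share of 7.46% that lies below the 10.2% over all names.

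Metal-binding and iron storage transcripts were lower as well. Of 18 metal handling names 5 fell, all of them stable, and 0 rose (median -0.28). The summed level of the list did not overlap, at 3493 to 4948 CPM in control and 2451 to 3267 CPM in nano_high. Metallothionein protein crs5, a small protein that binds copper and zinc, was at 116, 137, 152, 217 and 257 CPM in control and 71.1, 74.7, 57.1, 101 and 72.03 CPM in nano_high. Control 4 and 5, the libraries that stood apart, were the highest of the controls, and the fall remained called without them (log2 change -1.23 with SE 0.20, edgeR adjusted p = 0.00198; without the 5 libraries edgeR adjusted p = 0.00631). Ferritin, heavy subunit, which oxidises and stores iron, was at 1759, 1643, 1621, 2369.8 and 2265 CPM against 848, 1089.6, 941, 1485 and 1090.0 CPM (log2 change -0.82 with SE 0.18, edgeR adjusted p = 0.0074). Ferritin 2 light chain was at 238, 250.3, 216, 352 and 291 CPM against 174, 158, 163, 184 and 152 CPM. It was not called without the 5 libraries that stood apart (edgeR adjusted p = 0.0514). Cation efflux protein/ zinc transporter/arp2_g4539, named for a zinc exporter, fell from 9.27 ± 1.41 to 4.83 ± 1.67 CPM (log2 change -0.94 with SE 0.21, edgeR adjusted p = 0.00881). Against the same controls the list median was -0.29 in nano_low and -0.19 in silica, with 2 and 0 names called lower. Metallothionein protein crs5 changed by -0.98 in nano_low and -0.80 in silica on the log2 scale (edgeR adjusted p = 0.031 and 0.0668).

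The proteasome, the complex that degrades tagged proteins, had 6 of 27 names lower and 1 higher (median -0.21). Proteasome subunit beta type-4 was at 138, 151, 152, 149.9 and 158 CPM in control and 102, 112, 107, 120.2 and 106 CPM in nano_high (log2 change -0.45 with SE 0.10, edgeR adjusted p = 0.00822). Proteasome inhibitor pi31 subunit, a regulator of the complex, fell from 24.1 ± 3.06 to 16.9 ± 1.42 CPM, and proteasome subunit alpha type-6 and beta type-3 fell by 0.39 and 0.39 on the log2 scale. The count of falls was 5 without the 5 libraries that stood apart and within 1.5 times of that without any 1 library. Beta type-3 and the inhibitor were not called without the 5 (edgeR adjusted p = 0.0827 and 0.0553). Of 188 names of ubiquitin ligases, conjugating enzymes and proteases 10.1% were called, against 10.2% over all names, with 13 higher, 6 lower and a median of -0.01. The number higher was 6 without control 3 or nano_high 3, 7 without nano_high 1 or nano_high 5, and the number lower 1 without control 5, 2 without control 4, nano_high 1 or nano_high 3, 3 without control 3 or nano_high 2. Ubiquitin-conjugating enzyme e2 l3 fell from 80.1 ± 6.29 to 56.3 ± 5.47 CPM (log2 change -0.51 with SE 0.09, edgeR adjusted p = 0.00233). The ligase e3 ubiquitin-protein ligase mycbp2, which in flies and mice shapes synapses, rose from 84.9, 84.2, 69.1, 86.6 and 89.2 CPM to 128, 130.1, 128, 112 and 135 CPM without overlap (log2 change 0.61 with SE 0.12, edgeR adjusted p = 0.00398). Other ligases, mgrn1 and neurl1b, rose by 0.31 and 0.50, and were not called without the 5 libraries that stood apart (edgeR adjusted p = 0.0749 and 0.0563).

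Gut enzymes were called lower more often than higher. Of 25 digestive lipases and carbohydrases 3 fell (12.0%, against 4.97% over all names) and 1 rose (4.0%, against 5.2%), with a median of -0.30. Of 49 digestive and lysosomal peptidases 4 fell (8.16%) and 0 rose (median -0.06). Without the 5 libraries that stood apart 1 peptidase was lower, and the number was 7 without nano_high 4. For the lipases and carbohydrases 2 were lower and 0 higher without the 5. Hepatic triacylglycerol lipase, a fat-splitting enzyme, was at 161, 167, 162, 189.8 and 354 CPM in control and 53.6, 46.8, 62.2, 89.2 and 82.7 CPM in nano_high. Control 5 was far above the other controls, and every nano_high library was below every control (log2 change -1.63 with SE 0.27, edgeR adjusted p = 0.00198). Alpha-amylase, which digests starch, was at 2472, 2567, 2164, 4074 and 3838 CPM against 1422, 1463, 1627, 1972 and 2309 CPM, with nano_high 5 inside the control range (log2 change -0.78 with SE 0.18, edgeR adjusted p = 0.00983). Pancreatic triacylglycerol lipase held 520.4, 523, 587, 902 and 1232 CPM and 397, 394, 410.2, 612 and 342 CPM, where control 4 and 5 were again the high controls. It was not a stable name (log2 change -0.80 with SE 0.24, edgeR adjusted p = 0.0386, and edgeR adjusted p up to 0.131, without control 5; without the 5 libraries edgeR adjusted p = 0.14). Bile salt-activated lipase went the other way, from 120.5 ± 8.50 to 154 ± 9.48 CPM (log2 change 0.35 with SE 0.11, edgeR adjusted p = 0.0485, and edgeR adjusted p up to 0.116, without control 4). It was called neither without the 5 libraries nor after thinning (edgeR adjusted p = 0.22 and 0.0595). Mannan endo-1/arp2_g10474, named for an enzyme that cuts plant cell wall mannan, was at 31.5, 30.6, 27.3, 26.7 and 70.6 CPM in control and 8.69, 13.02, 12.4, 22.4 and 15.9 CPM in nano_high (log2 change -1.36 with SE 0.31, edgeR adjusted p = 0.0104).

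Eye transcripts fell in a small set of opsins and arrestins. Of 27 eye and phototransduction names 7 fell and 0 rose, while the list median was -0.05. Phosrestin i arrestin b arrestin, which shuts off the light response, was at 119, 118, 102, 229 and 178 CPM in control and 74.5, 69.6, 53.2, 99.2 and 64.3 CPM in nano_high. Control 4 and 5 were the highest controls and nano_high 4 the highest of its group (log2 change -1.05 with SE 0.21, edgeR adjusted p = 0.00508). Class a rhodopsin g-protein coupled receptor gprop1, an opsin name, was at 3102, 3485, 3154, 6922 and 5438 CPM against 1726, 2158, 1391, 3593 and 2632 CPM. Nano_high 4 lay inside the control range (log2 change -0.94 with SE 0.26, edgeR adjusted p = 0.0264, and edgeR adjusted p up to 0.0827, without control 4). The number lower was 4 without control 4, control 5, nano_high 1, nano_high 2 or nano_high 3. Without the 5 libraries that stood apart 8 names of the list fell, and the opsin name gave an edgeR adjusted p of 0.00632.

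**Figure D3:**
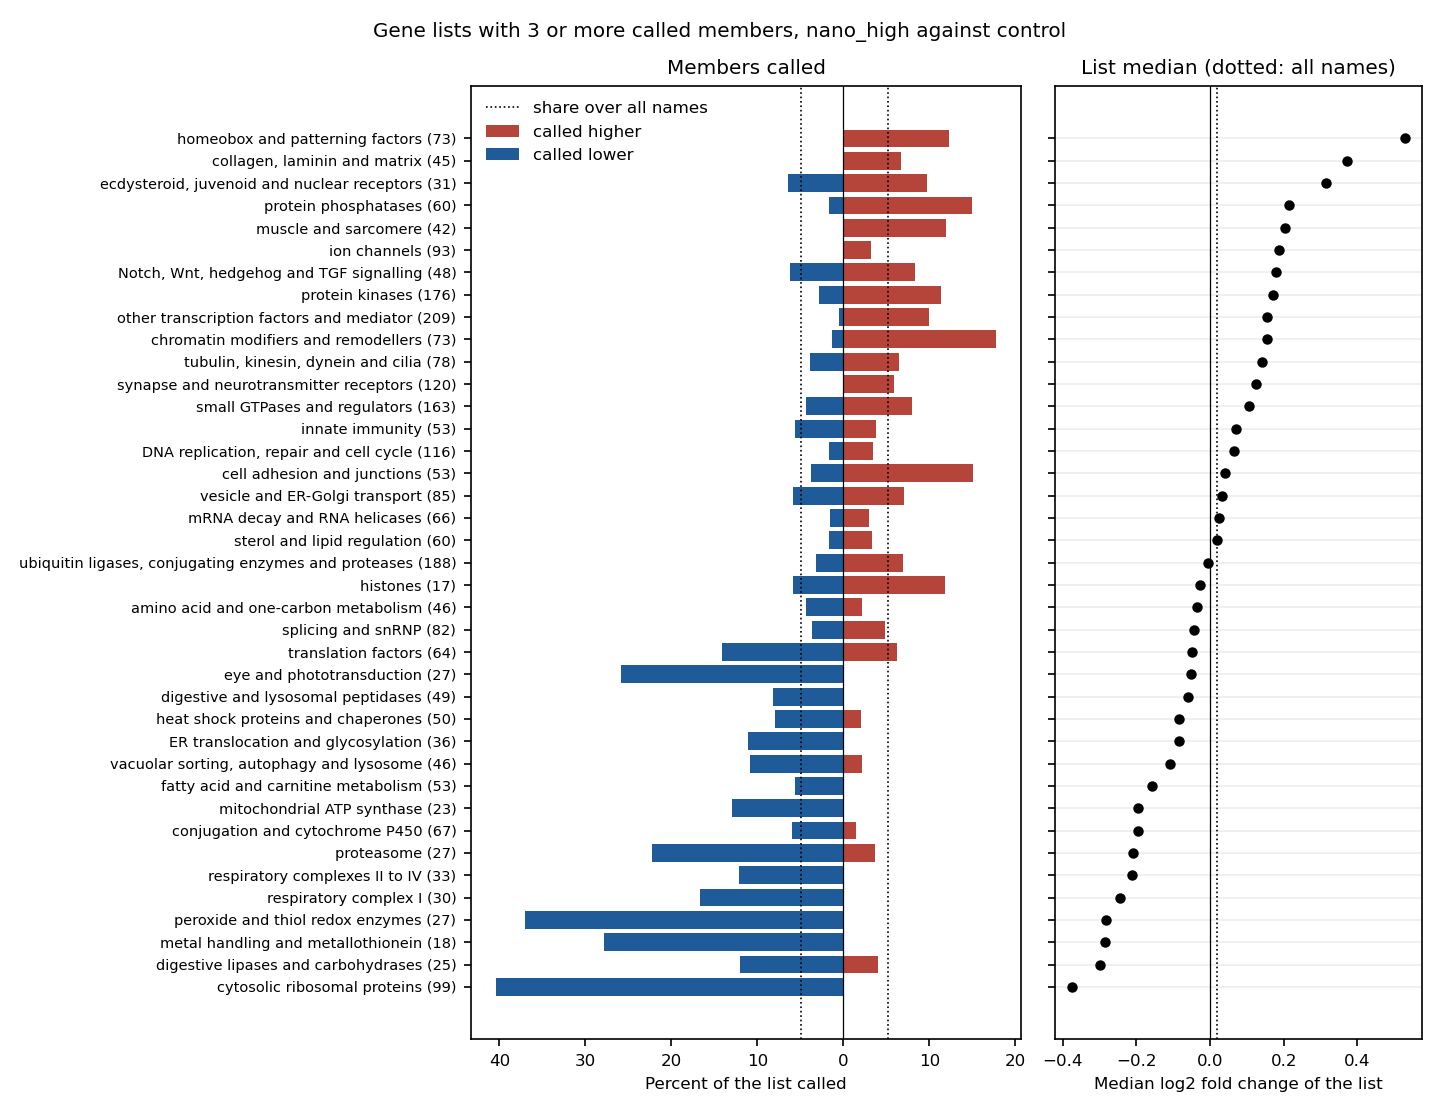
Percent of each gene list called higher (red, to the right) or lower (blue, to the left) in nano_high against control, with the share over all names dotted at 5.2% and 4.97%, beside the median log2 fold change of the list. Numbers in brackets are names tested. Cytosolic ribosomal proteins (40.4% lower) stand at the bottom and homeobox and patterning factors (12.3% higher, median 0.53) at the top.

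Among the rises, regulators of development and transcription stood out by their counts. Of 73 homeobox and patterning factors, DNA-binding proteins that set body regions and cell fates, 9 rose (12.3%) and 0 fell, and 65 of the 73 had a fold change above 0, with a median of 0.53. Their summed level did not overlap, at 692 to 843 CPM in control and 895 to 1029 CPM in nano_high. The count depended on the libraries and on depth: 4 without nano_high 2 or nano_high 3, 5 without control 3, 19 without nano_high 4, 12 without the 5 libraries that stood apart, and 5 after thinning to equal depth.

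The transcript named brother of odd with entrails limited/arp2_g9170 encodes a zinc finger factor that acts in Drosophila leg and gut development. It showed the largest rise among stable names with an informative description, from 2.83, 3.98, 4.12, 2.51 and 3.23 CPM to 10.5, 10.99, 7.59, 6.89 and 8.05 CPM. No libraries overlapped (log2 change 1.40 with SE 0.20, edgeR adjusted p = 0.000816). Homeotic protein antennapedia, a Hox factor of thoracic identity in Drosophila, was at 14.4, 18.04, 12.6, 15.05 and 8.08 CPM in control and 24.6, 27.1, 21.98, 20.2 and 25.9 CPM in nano_high, with control 5 the lowest and no overlap (log2 change 0.81 with SE 0.17, edgeR adjusted p = 0.00687). Homeotic protein empty spiracles, a head patterning factor in Drosophila, went from 10.4 ± 1.38 to 15.5 ± 1.87 CPM and zinc finger e-box-binding homeobox, a repressor of epithelial genes, from 21.1 ± 3.12 to 30.99 ± 3.52 CPM. After thinning, empty spiracles was not called (edgeR adjusted p = 0.102). The other 5 called names of the list, given here after their values were seen, were homeobox protein abdominal-a (1.34), iroquois-class homeodomain protein irx-4 (1.07), visual system homeobox (0.96), odd-skipped-related (0.87) and t-box transcription factor tbx2b (0.72), in log2 fold change.

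Other transcription factors followed in smaller steps. Of 209 such names, mediator subunits included, 21 rose and 1 fell (median 0.15). Rises numbered 9 without control 3 or nano_high 3, 11 without control 4 or nano_high 2, 13 without control 5, 14 without the 5 libraries that stood apart and 16 after thinning. Transcription factor 7 1-a, a partner of beta-catenin in Wnt signalling, was at 25.4, 33.5, 24.4, 25.9 and 29.7 CPM in control and 43.6, 52.2, 47.8, 41.01 and 45.8 CPM in nano_high (log2 change 0.73 with SE 0.12, edgeR adjusted p = 0.00198). Zinc finger protein ush, a cofactor of GATA factors in Drosophila, was at 36.95, 32.6, 24.3, 32.5 and 30.4 CPM against 48.6, 51.7, 48.7, 40.4 and 48.9 CPM, with no overlap and with nano_high 4 the lowest of its group (log2 change 0.60 with SE 0.12, edgeR adjusted p = 0.00401). Transcription factor sox-4 rose from 27.9 ± 6.23 to 49.7 ± 12.4 CPM with overlap and was not called without the 5 libraries that stood apart (edgeR adjusted p = 0.101), and transforming protein p68/c-ets-1, named for an ETS factor of the Ras pathway, from 19.2 ± 2.79 to 33.6 ± 5.82 CPM without it (log2 change 0.81 with SE 0.15, edgeR adjusted p = 0.0034).

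Aryl hydrocarbon receptor/arp2_g1754, a ligand-activated transcription factor that senses aromatic compounds in vertebrates, was at 4.51, 3.94, 3.28, 3.08 and 3.69 CPM in control and 7.32, 8.57, 7.85, 4.35 and 10.6 CPM in nano_high. In all, 4 of the 5 nano_high libraries were above all controls, and nano_high 4 lay inside the control range (log2 change 1.06 with SE 0.24, edgeR adjusted p = 0.0103). Among the conjugation names counted above, glucosyl/glucuronosyl transferases/arp2_g27, named for sugar-conjugating enzymes, was at 5.48, 2.31, 8.94, 3.69 and 9.08 CPM against 19.3, 12.7, 20.5, 7.75 and 17.3 CPM (log2 change 1.40 with SE 0.38, edgeR adjusted p = 0.0262, and edgeR adjusted p up to 0.0676, without control 4). The list of ecdysteroid, juvenoid and nuclear receptor names, which also holds hormone enzymes, binding proteins and receptor cofactors, had 31 names (median 0.31). Of these 3 were higher (9.68%, against 5.2% over all names) and 2 lower (6.45%, against 4.97%). Higher calls numbered 6 without nano_high 4, and the number lower 0 without nano_high 5, 1 without control 1, control 3, control 4, control 5, nano_high 1, nano_high 2 or nano_high 3; it was 5 higher and 1 lower without the 5 libraries that stood apart. Nuclear hormone receptor ftz-f1 beta was at 39.9, 46.04, 38.1, 49.3 and 51.01 CPM in control and 60.01, 68.8, 77.8, 68.7 and 66.7 CPM in nano_high (log2 change 0.61 with SE 0.11, edgeR adjusted p = 0.0034), and juvenile hormone resistance protein, a juvenile hormone receptor in Drosophila, rose from 15.9 ± 2.20 to 25.1 ± 5.36 CPM.

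Chromatin modifiers, which write, read or shift histone marks and nucleosomes, had 13 of 73 names higher (17.8%) and 1 lower, with a median of 0.15. The number higher was 5 without control 3, 8 without nano_high 2 or nano_high 5, 9 without the 5 libraries that stood apart and 8 after thinning. Histone acetyltransferase kat6b was at 34.9, 34.2, 21.3, 37.8 and 29.1 CPM in control and 41.7, 45.8, 47.3, 47.03 and 57.4 CPM in nano_high, with control 3 the lowest (log2 change 0.60 with SE 0.13, edgeR adjusted p = 0.0074). Histone-lysine n-methyltransferase, h3 lysine-79 specific, an enzyme of transcribed chromatin, was at 50.5, 50.6, 42.9, 48.9 and 55.9 CPM against 68.8, 69.6, 76.3, 60.3 and 70.1 CPM (log2 change 0.47 with SE 0.11, edgeR adjusted p = 0.011), and polycomb group protein asxl3 rose by 0.53 but was not called after thinning (edgeR adjusted p = 0.0574). The single fall, chromatin accessibility complex protein, a small histone-fold subunit of remodelling complexes, went from 22.8 ± 2.43 to 14.7 ± 1.57 CPM (log2 change -0.63 with SE 0.13, edgeR adjusted p = 0.00579). Of 17 histone names 2 rose and 1 fell (17.6% called, against 10.2% over all names), and none of the 3 was stable.

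Protein kinases rose more often than they fell. Of 176 names 20 rose (11.4%) and 5 fell (median 0.17). Rises numbered 10 without control 3, 12 without control 5 or nano_high 3, 13 without control 4, 15 without the 5 libraries that stood apart and 15 after thinning. Mitogen-activated protein kinase kinase kinase 19 was at 6.68, 10.99, 5.98, 5.32 and 5.77 CPM in control and 16.6, 13.8, 13.8, 13.4 and 18.99 CPM in nano_high, where control 2 stood above the other controls (log2 change 1.14 with SE 0.27, edgeR adjusted p = 0.0137; without the 5 libraries that stood apart edgeR adjusted p = 0.116). Serine/threonine-protein kinase lats1, the kinase at the end of the Hippo growth pathway, was at 86.8, 90.1, 72.4, 82.00 and 85.02 CPM against 116, 119, 128, 105 and 127 CPM without overlap (log2 change 0.51 with SE 0.09, edgeR adjusted p = 0.00213). Serine/threonine-protein kinase pak mbt, which acts below small GTPases on cell shape, held 50.3, 50.2, 51.6, 48.8 and 55.02 CPM and 69.2, 71.8, 72.1, 61.9 and 70.7 CPM (log2 change 0.43 with SE 0.07, edgeR adjusted p = 0.00198). Ste20 serine/threonine-protein kinase rose by 0.39 on the log2 scale. Cyclin dependent kinase 19 variant, a kinase of the mediator complex, went from 21.3 ± 2.18 to 37.1 ± 4.77 CPM (log2 change 0.80 with SE 0.12, edgeR adjusted p = 0.0012).

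Cyclin-t2, a partner of the kinase that releases paused RNA polymerase II, gave the lowest adjusted p of the names that rose. Its level was 47.3, 51.1, 42.1, 50.7 and 50.4 CPM in control and 65.3, 70.5, 81.6, 72.3 and 84.1 CPM in nano_high (log2 change 0.63 with SE 0.08, edgeR adjusted p = 0.000337). G1/s-specific cyclin-d2, which drives entry into the cell cycle, rose from 60.9 ± 9.83 to 86.8 ± 13.6 CPM (log2 change 0.51 with SE 0.12, edgeR adjusted p = 0.0153; without the 5 libraries that stood apart edgeR adjusted p = 0.0603). Mitotic-spindle organizing protein, a microtubule nucleation factor, fell from 12.3 ± 1.34 to 7.06 ± 0.856 CPM (log2 change -0.81 with SE 0.13, edgeR adjusted p = 0.00154). These were 3 of the 6 called names among 116 of DNA replication, repair and cell cycle, 4 higher and 2 lower, a share below that over all names. Dna-directed rna polymerases i, ii, and iii subunit rpabc3, a subunit shared by the nuclear RNA polymerases, was at 14.1, 11.39, 19.9, 18.2 and 24.2 CPM in control and 5.16, 3.49, 9.21, 3.88 and 5.84 CPM in nano_high (log2 change -1.67 with SE 0.41, edgeR adjusted p = 0.0151; without the 5 libraries that stood apart edgeR adjusted p = 0.0876).

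Phosphatases, the enzymes that reverse kinases, had 9 of 60 names higher and 1 lower (median 0.21). Among the 9 are 2 names of dual specificity tyrosine-phosphorylation-regulated kinases, which match the list by wording and are kinases. Higher calls numbered 5 without control 3, and 10 without the 5 libraries that stood apart. Receptor-type tyrosine-protein phosphatase gamma was at 15.6, 7.37, 10.9, 8.21 and 10.8 CPM in control and 23.2, 19.1, 29.1, 15.9 and 20.1 CPM in nano_high, with the highest control just below the lowest nano_high library (log2 change 1.03 with SE 0.23, edgeR adjusted p = 0.00963). Serine/threonine-protein phosphatase 1 regulatory subunit rose by 0.39 and tyrosine-protein phosphatase non-receptor type/arp2_g5670 by 0.42 on the log2 scale. Serine/threonine-protein phosphatase 4 catalytic subunit fell, from 11.3, 6.93, 2.23, 7.904 and 6.08 CPM to 3.11, 2.33, 1.78, 0.859 and 2.88 CPM, with control 3 inside the nano_high range (log2 change -1.65 with SE 0.39, edgeR adjusted p = 0.0127; without the 5 libraries that stood apart edgeR adjusted p = 0.0663).

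**Figure D4:**
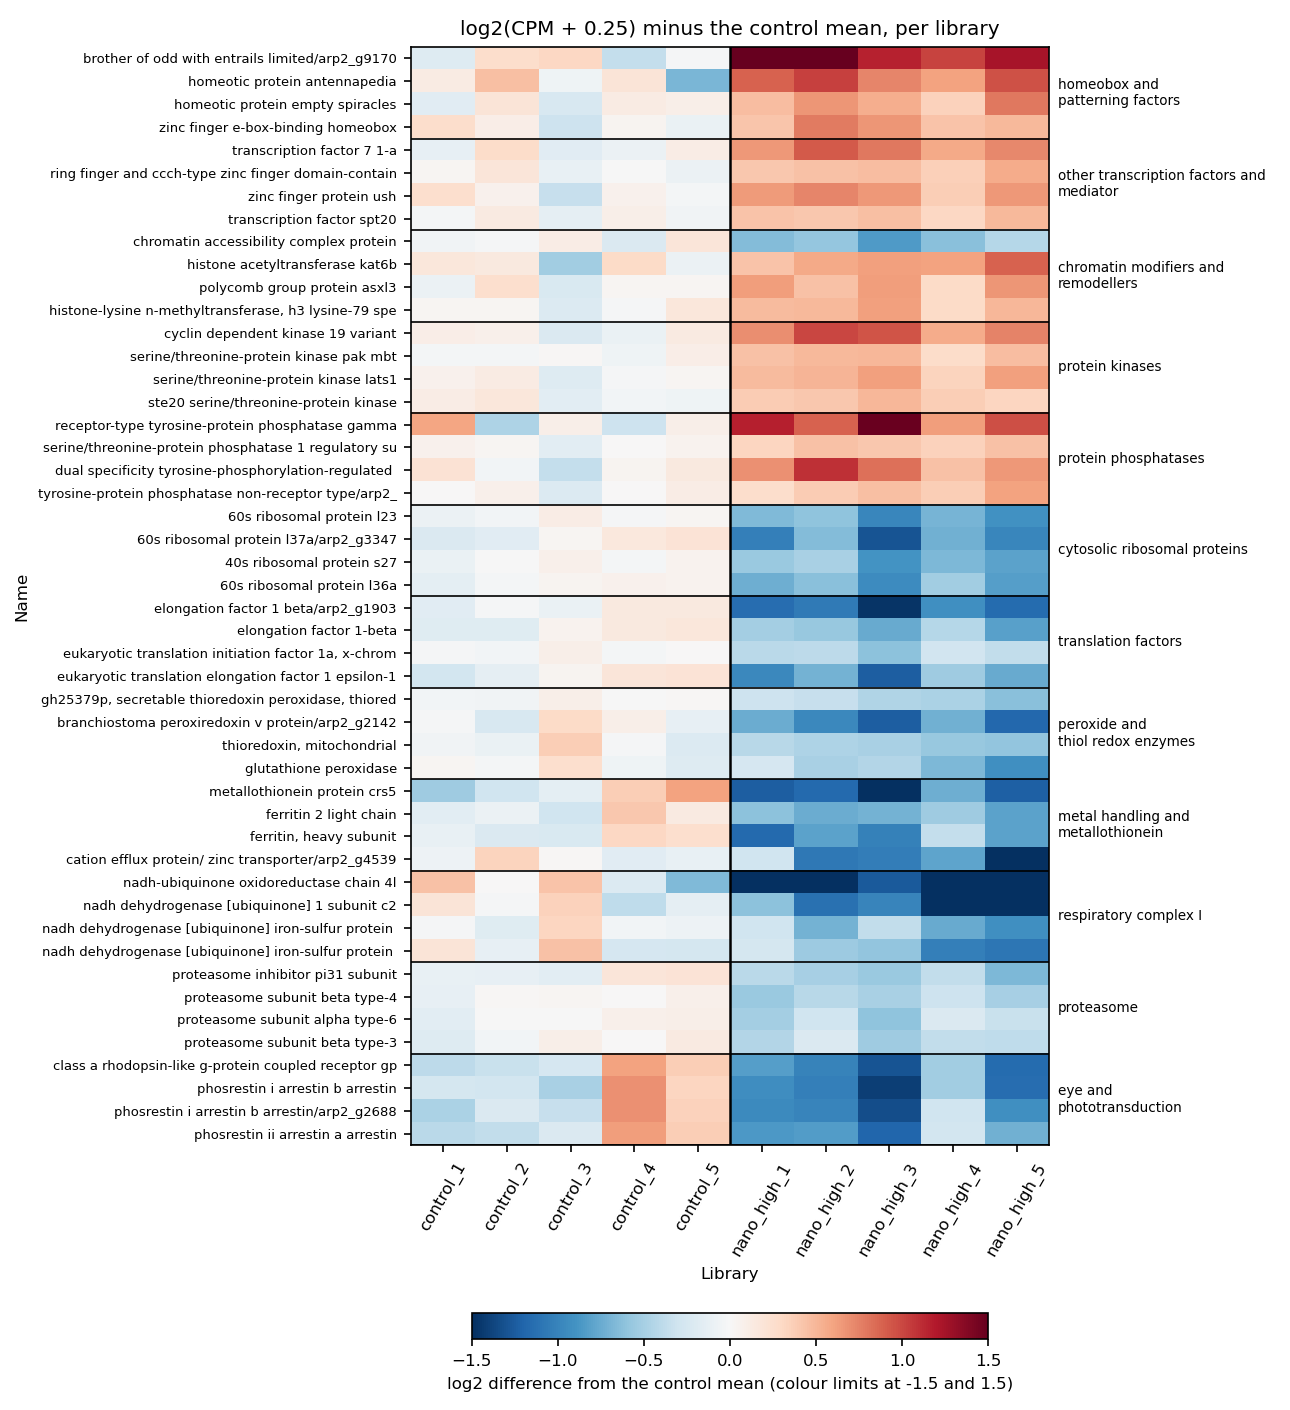
Heat map of 48 named transcripts in the 10 libraries, as log2(CPM + 0.25) minus the control mean, red above and blue below, colour limits at -1.5 and 1.5, grouped by list with the 4 smallest p per list. The upper 5 blocks, regulators, are red in nano_high except chromatin accessibility complex protein, and the lower 7 blocks are blue; eye names are also red in control 4 and 5.

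Signalling and small GTPase names were called in both directions. Small GTPases and their regulators are the switches of vesicle traffic and cell shape. Of 163 such names 13 rose (7.98%, against 5.2% over all names) and 7 fell (4.29%, against 4.97%), with a median of 0.11. The number higher was 6 without control 3 or nano_high 3, 7 without control 4, 8 without control 5, and 12 without the 5 libraries that stood apart. Outside the list by its wording, son of sevenless, the exchange factor that activates Ras, was at 41.95, 42.6, 33.97, 38.5 and 41.9 CPM in control and 54.7, 56.8, 55.9, 54.1 and 65.8 CPM in nano_high (log2 change 0.53 with SE 0.08, edgeR adjusted p = 0.00154). Adp-ribosylation factor protein 13b, a GTPase of cilia, was at 27.02, 28.2, 32.3, 31.2 and 29.5 CPM against 21.8, 20.5, 23.3, 23.5 and 18.3 CPM (log2 change -0.47 with SE 0.08, edgeR adjusted p = 0.00195), and ras-related protein rab-19 fell from 10.3 ± 0.597 to 5.97 ± 0.656 CPM. The rab-19 call was not kept after thinning (edgeR adjusted p = 0.102). Of 48 names of the Notch, Wnt, hedgehog and TGF pathways 4 rose (8.33%) and 3 fell (6.25%). Rises numbered 1 without control 3, 2 without control 4, nano_high 2 or nano_high 5, 9 without nano_high 4, and the number lower 1 without control 3 or nano_high 3; without the 5 libraries that stood apart it was 4 higher and 1 lower. The ligand wnt-2b had the lowest adjusted p of the comparison after 30s ribosomal protein s8/arp2_g2243, at 9.81, 10.2, 10.3, 12.3 and 11.00 CPM in control and 4.92, 4.72, 4.11, 5.57 and 5.43 CPM in nano_high (log2 change -1.11 with SE 0.13, edgeR adjusted p = 0.000186). Its 2 groups were narrow and far apart. Tgf-beta receptor type iii/sw, a co-receptor, rose from 15.6 ± 1.18 to 23.2 ± 3.24 CPM, and patched, the hedgehog receptor, rose from 31.99 ± 5.70 to 47.3 ± 8.54 CPM with overlap. The patched call was not stable (edgeR adjusted p up to 0.0634, without nano_high 2; after thinning edgeR adjusted p = 0.0567).

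Of 85 vesicle and ER-Golgi transport names 6 rose (7.06%, against 5.2% over all names) and 5 fell (5.88%, against 4.97%). Higher calls numbered 3 without nano_high 3, 13 without nano_high 4, and the number lower 1 without nano_high 3, 2 without control 3, control 5 or nano_high 2, 3 without control 1 or nano_high 5. Transport protein sec16a, which organises exit sites of the endoplasmic reticulum, was at 111, 109.8, 98.3, 100.3 and 110.5 CPM in control and 188, 168, 199, 136 and 152 CPM in nano_high (log2 change 0.67 with SE 0.12, edgeR adjusted p = 0.00316). Clathrin heavy chain, the coat protein of endocytic vesicles, was at 533, 483, 381, 453 and 392 CPM against 655, 584, 632, 571 and 594 CPM (log2 change 0.44 with SE 0.10, edgeR adjusted p = 0.0102; without the 5 libraries that stood apart edgeR adjusted p = 0.0541), and the clathrin assembly protein lap rose by 0.49 on the log2 scale. Of 53 cell adhesion and junction names 8 rose (15.1%) and 2 fell. The number higher was 3 without control 3 or nano_high 2, 4 without nano_high 1 or nano_high 3, 5 without control 4 or control 5, and 8 without the 5 libraries that stood apart. Protocadherin fat, a giant cadherin that sets tissue growth and polarity in Drosophila, held 440.0, 416, 375, 387 and 452 CPM and 676, 641, 660.1, 421 and 593 CPM, with nano_high 4 inside the control range (log2 change 0.53 with SE 0.13, edgeR adjusted p = 0.0145). De-cadherin, the epithelial cadherin of Drosophila, rose from 134 ± 13.8 to 175 ± 9.24 CPM, and tight junction protein 1, a junction scaffold, from 113 ± 22.3 to 181 ± 29.4 CPM, the latter not called without the 5 libraries (edgeR adjusted p = 0.0513).

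Names that state a molecular mass allow a rough view of protein size, as gene lengths were not available. The 14 names under 30 kDa had a median log2 fold change of -0.095 with 0 higher and 2 lower, the 23 from 30 to under 70 kDa a median of 0.124 with 1 higher and 1 lower, and the 28 of 70 kDa and over a median of 0.135 with 2 higher and 0 lower. The part of transcript length in the results above was not tested.

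Immune and secreted names were mixed. Of 53 innate immunity names 2 rose and 3 fell, a share below that over all names. Toll receptor 13, named for a pattern recognition receptor, was at 66.2, 78.8, 60.7, 62.3 and 67.7 CPM in control and 119, 135, 107, 85.3 and 112 CPM in nano_high (log2 change 0.73 with SE 0.15, edgeR adjusted p = 0.00652). Lectin-33a, a sugar-binding protein, was at 90.5, 115, 140.4, 139 and 179 CPM against 79.6, 58.6, 67.9, 75.7 and 67.04 CPM (log2 change -0.93 with SE 0.19, edgeR adjusted p = 0.00549; without the 5 libraries that stood apart edgeR adjusted p = 0.0557). Neither had overlapping libraries. Mucin-17, a gut surface protein by name, fell from 5833, 4255, 5135, 4885 and 5661 CPM to 3516, 2568, 3324, 2803 and 3222 CPM (log2 change -0.74 with SE 0.21, edgeR adjusted p = 0.0306, and edgeR adjusted p up to 0.0783, without nano_high 2), while mucin 55b was at 633, 527, 344, 689 and 542 CPM and 644, 685, 741, 1295 and 996 CPM, with nano_high 1 and 2 inside the control range and 4 and 5 highest (log2 change 0.67 with SE 0.19, edgeR adjusted p = 0.0323, and edgeR adjusted p up to 0.0828, without control 3). Without the 5 libraries that stood apart neither mucin was called (edgeR adjusted p = 0.134 and 0.151). The folding enzyme peptidyl-prolyl cis-trans isomerase fkbp14, of the endoplasmic reticulum, had the most reads of the names that fell, at 3683, 9065, 15962, 8624 and 3105 CPM in control and 3666, 1198, 1142, 1070.4 and 1433 CPM in nano_high. Control 3 was the highest library and nano_high 1 reached the lower controls, and the call was not stable (log2 change -2.25 with SE 0.60, edgeR adjusted p = 0.0237, and edgeR adjusted p up to 0.0736, without control 3; without the 5 libraries that stood apart edgeR adjusted p = 0.114).

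Some names of low level did not overlap between the groups. Vacuolar atpase assembly integral membrane protein vma21, which helps assemble the proton pump, was at 5.54, 6.37, 5.44, 5.21 and 7.62 CPM in control and 0.919, 0.570, 0, 0.162 and 0.338 CPM in nano_high (log2 change -3.90 with SE 0.87, edgeR adjusted p = 0.00971). For the lipid transfer protein vps13d/arp2_g6355, of the vacuolar protein sorting-associated names, control held 0.602, 3.39, 5.98, 1.37 and 1.54 CPM and nano_high was at 0 in all 5 nano_high libraries. Ribonuclease h/arp2_g1421, which removes RNA from RNA-DNA hybrids, fell from 7.74 ± 2.09 to 2.70 ± 0.327 CPM, and growth hormone-inducible soluble protein from 7.49 ± 1.64 to 2.87 ± 0.462 CPM. The leucine breakdown subunit methylcrotonoyl-coa carboxylase alpha chain was at 5.30, 3.94, 3.14, 2.51 and 4.62 CPM in control and 9.33, 10.4, 10.8, 6.52 and 6.40 CPM in nano_high, without overlap (log2 change 1.16 with SE 0.22, edgeR adjusted p = 0.00359).

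Muscle and synapse names were called higher in numbers that moved with single libraries. Of 42 muscle names 5 rose (11.9%, against 5.2% over all names) and 0 fell, with the number higher 1 without nano_high 3, 2 without control 2, control 3, control 4, control 5 or nano_high 1, 3 without nano_high 2, and 7 without the 5 libraries that stood apart. However, myosin-i heavy chain, myosin-2 heavy chain, non muscle and muscleblind protein 1 among them are not sarcomere proteins, and muscle m-line assembly protein unc-89, which is, rose from 280.5 ± 29.8 to 373 ± 55.3 CPM (log2 change 0.41 with SE 0.12, edgeR adjusted p = 0.0329, and edgeR adjusted p up to 0.0932, without nano_high 1). Of 120 synapse and neurotransmitter receptor names 7 rose (5.83%, against 5.2% over all names) and 0 fell. Rises numbered 3 without control 3, 4 without nano_high 2, and 8 higher and 1 lower was the count without the 5 libraries that stood apart. The 7 included neurogenic protein mastermind, a Notch cofactor, which is not a synaptic protein. Cuticle proteins, the material of the exoskeleton, had 0 of 30 names called by edgeR, 0 at an unadjusted p under 0.05 and 0 called by DESeq2, with a median of -0.32, which was -0.56 without the 5 libraries that stood apart and -0.11 after adding the first component as a covariate. Their summed level was 5652 to 10960.0 CPM in control and 4352 to 8555 CPM in nano_high. Of 7 hemoglobin and globin names 1 fell (14.3%), of 17 germline and oogenesis names 1 fell (5.88%), and of 93 solute carriers and symporters 1 fell (1.08%). The share lower over all names was 4.97%. Of 3 names that match algae and plants, the food, 1 fell.

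The test did not separate the higher from the lower concentration of the copolymer. In nano_high against nano_low 0 of 7564 names were called by edgeR (0% of those tested), 512 had an unadjusted p under 0.05, and DESeq2 called 8. The lack of calls does not show that both concentrations act alike. Against control, nano_low gave 49 calls (0.648%), 7 higher (0.0925%) and 42 lower (0.555%), and silica 56 (0.74%), 11 higher (0.145%) and 45 lower (0.595%). All of these comparisons share the control libraries. Over the 393 names that rose in nano_high the median log2 fold change was 0.47 in nano_high and 0.27 in nano_low, and over the 376 that fell it was -0.52 and -0.35. These names were chosen for their change in nano_high, so a smaller value elsewhere is partly given by the choice. For brother of odd with entrails limited/arp2_g9170 the level was 3.33 ± 0.706 CPM in control, 6.24 ± 1.49 CPM in nano_low and 8.80 ± 1.82 CPM in nano_high. Cyclin-t2 was at 48.3 ± 3.797, 58.5 ± 1.503 and 74.8 ± 7.86 CPM in the same order, so nano_low lay between the other groups for both names. For 60s ribosomal protein l23 the levels were 489 ± 26.1, 291 ± 31.1 and 288 ± 32.3 CPM, with nano_low close to nano_high.

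**Figure D5:**
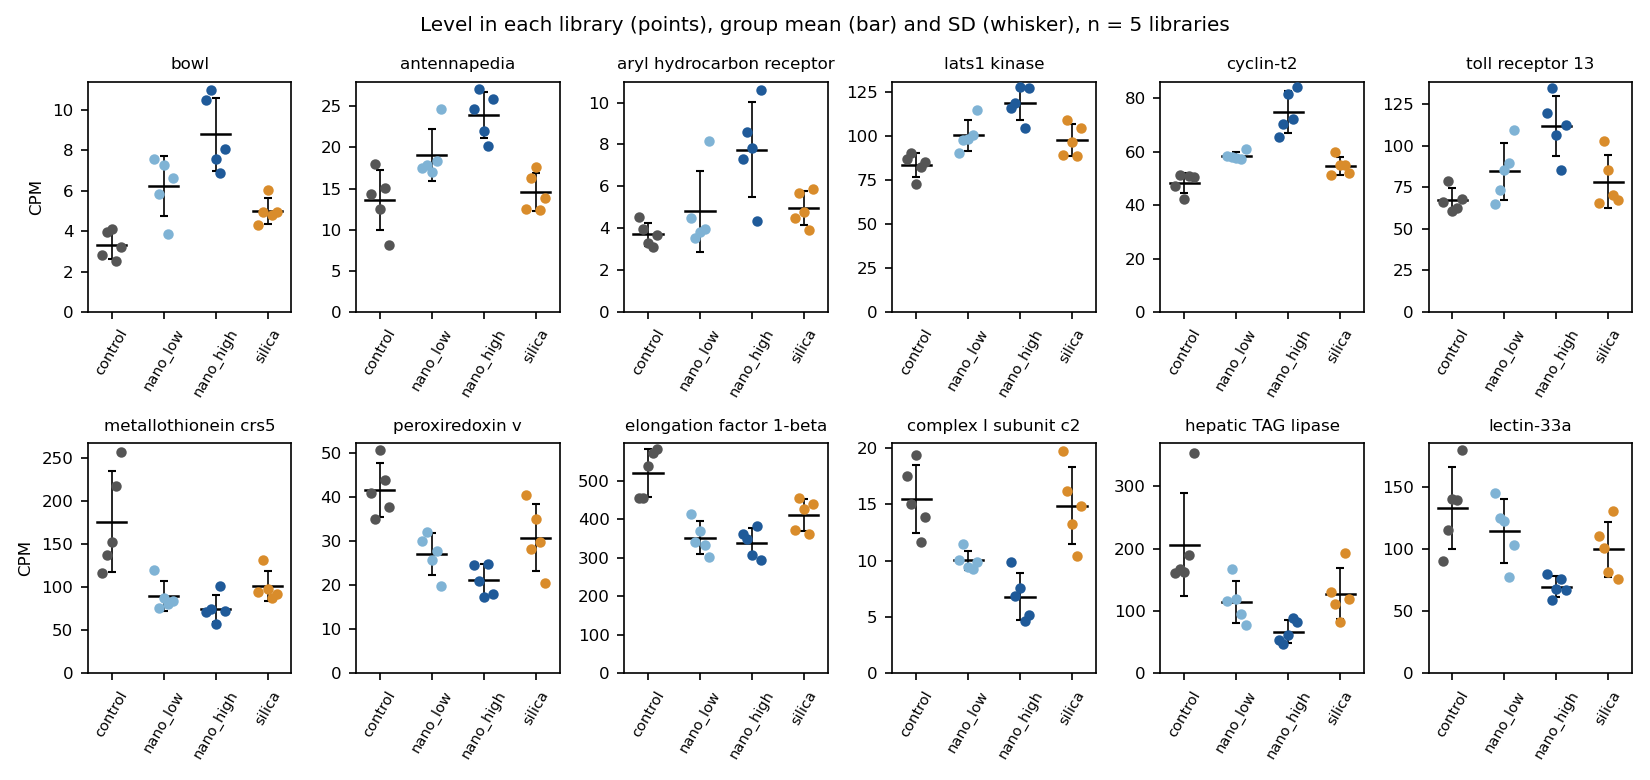
Level of 12 transcripts (CPM, axes from 0) in each library of the 4 groups, with group mean (bar) and SD (whisker), n = 5. The upper row holds names that rose and the lower row names that fell in nano_high against control; hepatic TAG lipase is hepatic triacylglycerol lipase and complex I subunit c2 is nadh dehydrogenase [ubiquinone] 1 subunit c2.

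Silica at the same nominal number was set against nano_high as a mineral particle. In this comparison 403 names were called (5.33%), 179 higher in nano_high (2.37%) and 224 lower (2.96%), but the count was 39 without the 5 libraries that stood apart, none of which was silica, and 36 when only these 2 groups were fitted. It was 115, 146 and 79 without nano_high 2, 4 and 5, 91, 111 and 172 without silica 1, 4 and 5, 647 and 612 without nano_high 1 and 3, and 256 after thinning. Of the 769 names called against control, 196 were also called against silica with the same sign, 71 higher and 125 lower, and 0 with the opposite sign. Both comparisons share the nano_high libraries, so this count is a description.

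Several names separated nano_high from silica as well as from control. Plasminogen activator inhibitor 1 rna-binding protein/arp2_g6385, which binds messenger RNA, was at 299.6, 343, 238, 246 and 282 CPM in control, 453, 536, 389, 489.6 and 478 CPM in nano_high and 218, 257, 247, 213 and 183 CPM in silica (log2 change 1.07 with SE 0.14, edgeR adjusted p = 0.00131, nano_high against silica). Against control it was not called without the 5 libraries that stood apart (edgeR adjusted p = 0.055). Glycine n-methyltransferase, which consumes the methyl donor S-adenosylmethionine, was at 173, 137, 134, 146 and 136 CPM in control, 97.5, 95.3, 90.6, 117 and 98.1 CPM in nano_high and 191, 142, 146, 159 and 189 CPM in silica. Silica and control overlapped and nano_high lay below both (log2 change -0.73 with SE 0.10, edgeR adjusted p = 0.00131). For beta lactamase domain/arp2_g2263 the values were 46.3, 33.6, 40.6, 27.6 and 38.3 CPM in control, 20.1, 17.5, 21.2, 17.1 and 12.2 CPM in nano_high and 55.3, 45.98, 40.8, 36.6 and 38.02 CPM in silica (log2 change -1.30 with SE 0.18, edgeR adjusted p = 0.00131). Kinesin-associated protein/arp2_g1514, an adaptor of a microtubule motor, was at 70.5, 67.9, 71.6, 74.4 and 79.8 CPM, 42.8, 43.6, 39.4, 48.8 and 37.8 CPM and 80.98, 62.01, 86.7, 73.98 and 83.9 CPM in the same order (log2 change -0.87 with SE 0.11, edgeR adjusted p = 0.00131). The names 30s ribosomal protein s8/arp2_g2243, hig1 domain family member/arp2_g6209, cyclin-t2, son of sevenless, macoilin-1 and phosphatase and actin regulator differed from silica by -1.08, -1.17, 0.45, 0.46, 0.59 and 0.58 on the log2 scale.

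Ribosomal names were low in silica too. Against control the list medians were -0.39 in nano_low, -0.38 in nano_high and -0.47 in silica, with 18, 40 and 28 names called lower, all against the same controls. 60s ribosomal protein l23, called against control in nano_high, differed from silica by -0.05 (SE 0.11, edgeR adjusted p = 0.79). For complex I the list medians against control were -0.05 in nano_low, -0.24 in nano_high and 0.15 in silica. Its subunit c2 was lower in nano_high than in silica (log2 change -1.13 with SE 0.20, edgeR adjusted p = 0.00747), as was chain 4l (log2 change -1.75 with SE 0.34, edgeR adjusted p = 0.0103). These values are from the full fit, which called 403 names against silica, and 39 without the 5 libraries that stood apart. No silica library stood apart. Summed complex I was 3150 and 3234 CPM in nano_high 4 and 5, and 3501 to 4616 CPM in nano_high 1 to 3. Chain 4l was at 35.8 to 70.8 CPM in nano_high 1 to 3 and 112 to 213 CPM in silica.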

How the data were processed

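RNA of pooled whole animals was sequenced after poly-A selection with a stranded kit, per the labels' protocols. Salmon 0.12.0 and R 3.4.3 are listed, per the submitters' processing notes. Transcript reference and annotation were not given in the sources used here. As for values, the authors deposited a table called normalized for 7784 names. Its unit is not stated, and the deposited values were treated as estimated counts (expected counts) because library totals differ widely; CPM, depth and the edgeR test rest on this reading. No name matched the reference table, so no lengths, positions or sequences were used.

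A name was tested when 5 libraries or more held a deposited value of 1 or more, which kept 7564 and left out 220, and values were then rounded. All 20 libraries were fitted with a mean per group by edgeR 4.0.16 (quasi-likelihood, robust, TMM factors 0.898 to 1.14) in R 4.3.3. Each test was two-sided, with p-values adjusted by Benjamini-Hochberg and a threshold of 0.05. As the design allowed for either unit, edgeR was used because the values were read as estimated counts. DESeq2 1.42.0 was the other count test. Lists and figures came from pandas 2.3.3, numpy 2.4.6 and matplotlib 3.10.9 under Python 3.11.15. Library totals were 11918440 to 26562258 in control and 39087882 to 95906857 in nano_high, and the SE of each fold change carries the precision. No 2 replicate libraries agreed within sampling noise.

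In all 57 gene lists were defined by wording and described by counts and medians, without a set test. The members and lists were chosen with earlier results of these data known. Named transcripts were taken by rule. The first part takes the 12 largest rises and 12 largest falls among stable names with an informative description and a mean of at least 1 CPM. The second takes the 6 most abundant called names in each direction. The third takes the 4 called members with the smallest p in lists rich in calls. The fourth takes the 5 names with the smallest p in each direction that also differed from nano_low or silica. Alternatives covered normalization, filter, tool, groups fitted, depth, a replicate block, the first principal component as a covariate and leaving out libraries.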

Additional observations from a re-analysis of the deposited data

Results flagged for a closer look

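In the 148 named transcripts, 296 groups of 5 libraries were examined for a library far from the others of its group, by Dixon's criterion at the 95% level, and 15 were found. Chance flags about 1 in 20 groups, and the named transcripts were not a random choice. No explanation was tested for any of them.

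High control libraries were control 2 for mitogen-activated protein kinase kinase kinase 19 (11.0 CPM, the others 5.32 to 6.68), control 5 for hepatic triacylglycerol lipase (354 CPM, the others 161 to 189.8), control 4 for 60s acidic ribosomal protein p2/arp2_g1144 (56.9 CPM, the others 35.2 to 39.9), control 5 for mannan endo-1/arp2_g10474 (70.6 CPM, the others 26.7 to 31.5) and control 3 for thioredoxin, mitochondrial (94.4 CPM, the others 63.4 to 72.3). Low control libraries were control 3 for nuclear receptor corepressor (82.2 CPM, the others 107 to 114) and for e3 ubiquitin-protein ligase mycbp2 (69.1 CPM, the others 84.2 to 89.2). They also included control 5 for tgf-beta-activated kinase 1 and map3k7-binding protein (9.85 CPM, the others 11.7 to 12.0) and control 1 for autophagy-specific gene/arp2_g5542 (5.30 CPM, the others 6.97 to 7.53).

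In nano_high, library 1 was high for peptidyl-prolyl cis-trans isomerase fkbp14 (3666 CPM, the others 1070.4 to 1433), library 5 for son of sevenless (65.8 CPM, the others 54.1 to 56.8), and library 4 for pancreatic triacylglycerol lipase (612 CPM, the others 342 to 410.2) and glycine n-methyltransferase (117 CPM, the others 90.6 to 98.1). Library 4 was low for zinc finger protein ush (40.4 CPM, the others 48.6 to 51.7) and for serine/threonine-protein kinase pak mbt (61.9 CPM, the others 69.2 to 72.1).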

How the results depend on the processing

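In nano_high against control the 769 calls became 371 with only the 2 groups fitted and 1740 after adding the first component as a covariate, and ranged from 416 to 973 when 1 library was left out. They stayed within 1.5 times of 769 with other size factors, both other filters, DESeq2, thinning and without the 5 libraries that stood apart. In nano_high against nano_low the count was 0 in each of these fits except DESeq2, which called 8. In nano_high against silica the 403 calls became 924 by DESeq2, 36 with only the 2 groups, 256 after thinning, 651 with the first component as a covariate and 39 without the 5 libraries, and ranged from 79 to 647 when 1 library was left out. Why these counts moved was not tested. The fits that left out libraries or thinned them also held fewer libraries or counts, and without 1 library the counts moved both down and up. The 148 named transcripts gave 2812 values over the alternatives: 2559 kept their direction and their call, 253 kept the direction without a call, and 0 reversed. Of the 148, 85 were called under every alternative run. At the equal depth of the thinned libraries 15 named transcripts were not called, and without the 5 libraries 38 were not.

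Replicate numbers are shared by the groups, but deviations from the group means correlated between control and nano_high libraries of the same number at 0.479, -0.0436, 0.427, 0.65 and 0.169, not all above 0.1, so the numbers were not taken as pairs. With the replicate block 612 names were called against control (308 higher and 304 lower), 0 against nano_low and 296 against silica. The block left 13 of the 148 named transcripts without a call.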

Other observations

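Some gene groups outside the account above are given here as values. In nano_high against control, 4 chaperone and heat shock names out of 50 fell and 1 rose, a share close to that over all names. The number lower was 1 without nano_high 3 and 5 without nano_high 4. It was 2 lower and 0 higher without the 5 libraries that stood apart, and also after thinning. Prefoldin subunit/arp2_g5259, part of a chaperone that hands actin and tubulin to the folding machinery, was at 106, 104, 120.4, 115 and 113 CPM in control and 57.4, 76.6, 70.3, 72.3 and 61.9 CPM in nano_high, without overlap (log2 change -0.72 with SE 0.16, edgeR adjusted p = 0.00924). Among 82 splicing names 4 rose and 3 fell, a share of 8.54%, below that over all names. The small core subunit u6 snrna-associated sm protein lsm7 fell from 23.8 ± 2.03 to 15.6 ± 1.29 CPM (log2 change -0.61 with SE 0.10, edgeR adjusted p = 0.00154). Splicing factor, arginine/serine-rich rose from 49.4 ± 4.87 to 72.7 ± 9.59 CPM (log2 change 0.56 with SE 0.10, edgeR adjusted p = 0.00359).

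Of 78 microtubule names 5 were higher and 3 lower, a share of 10.3%, close to the 10.2% over all names. Dynein light chain tctex-type, a small cargo-binding subunit of the dynein motor, was at 26.5, 26.2, 32.3, 32.1 and 27.9 CPM in control and 19.3, 17.6, 17.7, 20.4 and 17.7 CPM in nano_high (log2 change -0.65 with SE 0.10, edgeR adjusted p = 0.00154), while cytoplasmic dynein 1 light intermediate chain, a larger subunit of the same motor, was at 110.4, 111, 105, 114 and 111 CPM against 126, 132, 135, 139.7 and 138 CPM (log2 change 0.28 with SE 0.07, edgeR adjusted p = 0.0127; without the 5 libraries that stood apart edgeR adjusted p = 0.065). Both sets of libraries were without overlap, in opposite directions.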
